A study of Caenorhabditis elegans with 3 samples.

Results

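The MATH and BATH domain genes of the nematode Caenorhabditis elegans were measured in early young adult hermaphrodites on 3 DNA microarrays with 2 colours each. The members are the genes whose platform symbol starts with math- or bath-, taken from probes that name 1 gene and have a value on all 3 arrays. This gave 76 genes out of 15078, of which 44 are math genes and 32 are bath genes. All but 1 had 1 probe, and bath-34 had 2 probes, which were averaged on each array. No filter on low values was applied, so all 76 members entered the test.

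The 3 preps of the worms form 1 group, and each was hybridised on its own array against pooled wild-type mRNA that the labels call a mixed reference. Each value is therefore a log2 ratio of worms to reference on 1 array. The strain, age in hours and growth conditions of the worms, and the stages and sexes in the reference, were not stated in any source used. Nothing in the labels says that the preps came from separate cultures, so the p-values cover prep-to-prep spread that may be technical. The number of arrays limits the precision. The sign is likely worms over reference, because channel 2 holds the worms and channel 1 the reference. The dyes are not stated, and if the sign ran the other way each direction given here would turn. The adult cuticle collagen genes had a median log2 ratio of 2.60 and were above the reference in 3 of 3 cases. All 4 larval moulting genes listed as a check were below it, with a median of −1.91, and 4 of 5 male genes did not pass the test. Lists used as a check, here and below, were chosen with earlier results of these data known. They do not test the sign independently.

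The MATH (meprin and TRAF homology) domain is a fold that binds short stretches of partner proteins. In BATH proteins it is joined to a BTB domain, which binds the cullin CUL-3. Such a protein can act as an adaptor that holds a substrate while the CUL-3 RING ligase attaches ubiquitin to it, which usually marks the substrate for the proteasome. The best studied C. elegans adaptor of this kind is MEL-26, which brings the microtubule-severing protein MEI-1 (katanin) to CUL-3 after meiosis in the egg. Most genes named math encode MATH domain proteins without the BTB partner domain. Both groups are expanded in C. elegans by local gene duplication, and rapid change of the MATH domain between copies has led to the proposal that some act against foreign proteins. The roles of most members are unknown.

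The members lay on both sides of the reference, and the bath genes lay higher than the math genes. In limma's test of the mean log2 ratio against 0, with Benjamini-Hochberg adjustment over all genes at 0.05, 18 of the 76 members stood above the reference, 17 stood below it and 41 did not pass. That is 23.7% above and 22.4% below, against 21.7% above and 22.2% below among all genes tested, where 44% passed in either direction. The shares of the members as a whole were thus near the background. The median log2 ratio of the members was 0.05, against 0.00 for all genes. The counts moved with the arrays used, as did the share of all genes called. Without prep 1 there were 23 members above and 20 below (51.4% of all genes called), without prep 2 there were 10 and 11 (30.6%), and without prep 3 there were 10 and 12 (32.7%).

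The 2 name groups differed in these counts. Of 32 bath genes, 15 were above the reference (46.9%), against 6 below it (18.8%) and 11 not past the test. Of 44 math genes, 3 were above (6.82%), against 11 below (25%) and 30 not past the test. Most of the bath genes above lay in stretches of neighbours in 1 part of chromosome II, described below. In those stretches 3 of 3 and 6 of 7 measured bath genes were above. The other bath genes called lay on both sides. They were bath-13, bath-15, bath-29, bath-35, bath-42 and bath-45 above, and bath-9, bath-10, bath-26, bath-38, bath-39 and bath-44 below. Without prep 1 there were 18 bath genes above and 8 below, and 5 math genes above and 12 below. Without prep 2 the counts were 10 and 5 for bath genes and 0 and 6 for math genes, and without prep 3 they were 9 and 5 for bath genes and 1 and 7 for math genes. The median log2 ratio of the bath genes was 0.196 on prep 1, 0.35 on prep 2 and 0.44 on prep 3. The median of the math genes was −0.17 on prep 1, −0.17 on prep 2 and 0.02 on prep 3. On each array the bath median was the higher one, and the medians over preps were 0.31 and −0.03. No test was made of the difference between the groups of genes, because genes that neighbour and resemble each other are not independent. The difference of the medians was 0.34. It was 0.34 with scale and 0.35 with quantile normalization, and 0.31 with blocks of neighbouring probes centred. Without prep 1 it was 0.41, without prep 2 it was 0.34 and without prep 3 it was 0.35. Probes on at least 2 arrays left it at 0.34. The other alternatives listed with the processing keep the gene means or shift all genes alike, so they could not move it.

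**Figure D1:**
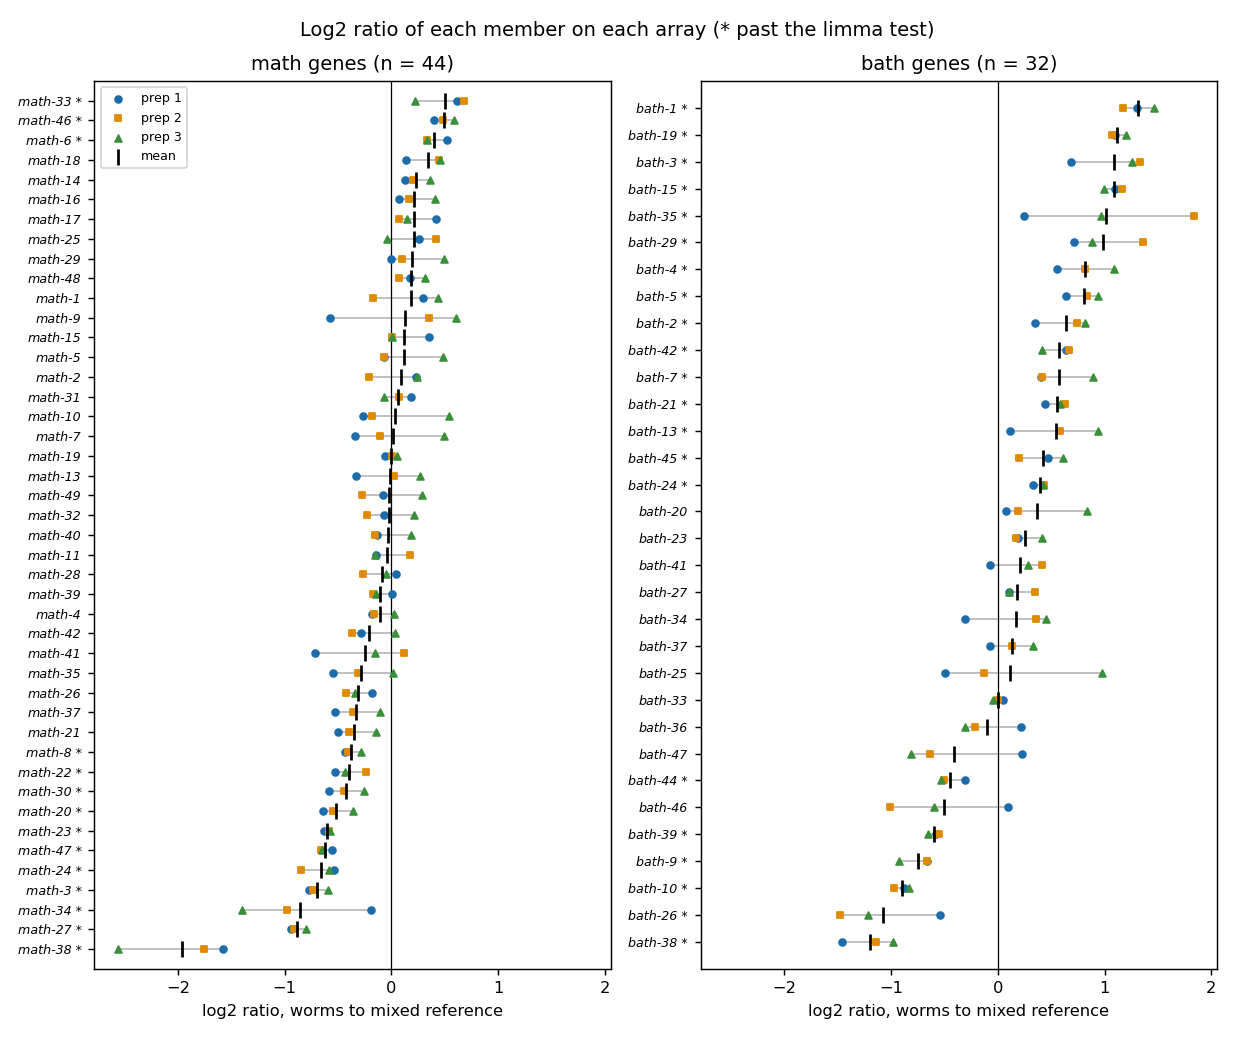
Log2 ratio of worms to mixed reference (x axis) for each of the 44 math genes (left) and 32 bath genes (right), with 1 point for each prep, a black tick at the mean and an asterisk at members past the limma test. The bath genes reach 1.31 at the top and −1.19 at the bottom, while the highest math gene is at 0.51 and the lowest at −1.96.

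All of the 12 highest members past the test with 1 sign on all arrays were bath genes. bath-1 was the highest, with log2 ratios of 1.31 on prep 1, 1.17 on prep 2 and 1.46 on prep 3. All preps were thus well above 0, and the mean of 1.31 ± 0.14 (SD, n = 3) is a 2.49-fold ratio (limma adjusted p = 6.49e-05). bath-19 was at 1.09, 1.07 and 1.196 on preps 1 to 3, a mean of 1.12 ± 0.07 and the narrowest spread among the 4 highest members (adjusted p = 1.34e-04 by limma). bath-3 was at 0.68, 1.33 and 1.26, so that prep 1 was the low one, with a mean of 1.09 ± 0.36 (limma adjusted p = 5.05e-04). bath-15, which lies on chromosome III, was at 1.100, 1.16 and 0.996, and its mean of 1.09 ± 0.08 rests on like values in all preps (limma adjusted p = 1.63e-04).

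The next members were more uneven between preps. bath-35 was at 0.25, 1.83 and 0.97, which gave the largest spread of all members (1.02 ± 0.79; limma adjusted p = 0.00828). Its value was high on prep 2 and low on prep 1. bath-29 was at 0.71, 1.36 and 0.88 (0.98 ± 0.33; limma adjusted p = 8.07e-04). bath-4, bath-5 and bath-2 had means of 0.82 ± 0.26, 0.804 ± 0.15 and 0.63 ± 0.25. bath-42, bath-7 and bath-21 closed the group of 12 at 0.58 ± 0.14, 0.57 ± 0.28 and 0.55 ± 0.10, and the highest adjusted p of the 12 was 0.0114. The genes bath-2, bath-42, bath-7 and bath-21 did not pass a test against a 1.2-fold margin (limma adjusted p from 0.0545 for bath-2 to 0.106 for bath-7). Their calls also ended with 1 prep left out, namely bath-2 and bath-7 without prep 3 (0.54, limma adjusted p = 0.0542, and 0.41, limma adjusted p = 0.140), bath-42 without prep 2 (0.53, limma adjusted p = 0.0724) and bath-21 without prep 2 or prep 3 (limma adjusted p = 0.0831 and 0.0540).

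The remaining 6 members above the reference had means from 0.395 to 0.54 and adjusted p from 0.0130 to 0.0338 in limma. They included the 3 math genes above, which are named here after their values were seen. math-33 encodes a deubiquitinating enzyme, the counterpart of human USP7, so its MATH domain belongs to a protein that removes ubiquitin. It was at 0.62, 0.68 and 0.22 on preps 1, 2 and 3, lowest on prep 3, with a mean of 0.51 ± 0.25 (limma adjusted p = 0.0176). math-46 was at 0.399, 0.48 and 0.58, and math-6 at 0.52, 0.33 and 0.34. None of these 3 passed the test against a 1.2-fold margin or the test without prep 2, and without prep 3 the count of math genes above was 1.

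The 12 lowest members past the test held 7 math and 5 bath genes. math-38 was the lowest, at −1.57 on prep 1, −1.76 on prep 2 and −2.56 on prep 3. It was the lowest member on every array, and its mean of −1.96 ± 0.53 is a ratio 3.90-fold below the reference (limma adjusted p = 4.85e-05). bath-38 was at −1.46, −1.14 and −0.98, a mean of −1.19 ± 0.25 (limma adjusted p = 1.68e-04). bath-26 was at −0.55, −1.48 and −1.21, with prep 1 nearest to 0 (−1.08 ± 0.48; limma adjusted p = 0.00111). bath-10 was at −0.88, −0.98 and −0.84, with little spread (−0.897 ± 0.07). math-27, annotated as a pseudogene, was at −0.94, −0.92 and −0.796, equally even over the preps (−0.88 ± 0.08; limma adjusted p = 5.14e-04).

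math-34 was at −0.19, −0.98 and −1.400, so its preps disagreed in size though not in sign (−0.86 ± 0.61; limma adjusted p = 0.00803). Without prep 3 its mean was −0.59 and its call was lost (limma adjusted p = 0.0526). The others of the 12 were closer together. bath-9 was at −0.75 ± 0.15 and math-3 at −0.701 ± 0.10, while math-24 was at −0.66 ± 0.17 (call lost without prep 2, limma adjusted p = 0.0539) and math-47, a pseudogene, at −0.62 ± 0.06. math-23 had the narrowest spread of all members, with −0.63, −0.59 and −0.58 (−0.600 ± 0.03; limma adjusted p = 0.00417). bath-39 on chromosome V was at −0.596 ± 0.05, and its call was lost under the 1.2-fold margin (limma adjusted p = 0.0525) and, at −0.34, with blocks of neighbouring probes centred (limma adjusted p = 0.0512). The other 5 members below the reference had means from −0.52 to −0.37 (limma adjusted p from 0.0112 to 0.0411).

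Of the 41 members that did not pass, 31 had a mean within 0.25 of 0 on the log2 scale. Their means ran from −0.504 to 0.37, and 23 were positive and 18 negative. The 4 members nearest to 0 were bath-33, math-19, math-13 and math-7. bath-33 was at 0.05, 0.00 and −0.05, and its 95% interval ran from −0.29 to 0.29. A difference of that size from the reference is not excluded by these 3 arrays, as the interval for math-19 (−0.29 to 0.29) also shows. math-7 had the same mean near 0 from unlike values, −0.34, −0.11 and 0.49, and math-13 likewise from −0.33, 0.02 and 0.27.

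Most members lie in the genome in groups of neighbours. In a table of WBcel235 genes, 92 genes carry a math or bath name, 79 of them on chromosome II, and 74 of the 92 were measured here. The members bath-34 and bath-35 had no match in that table. Of the 65 members on chromosome II, 13 were above the reference (20%) and 16 were below (24.6%), against 26.4% above and 18.9% below among the 2605 other genes of that chromosome. When named genes with at most 5 other genes between them were joined into runs, 71 of the 79 fell into 7 runs and 8 stood alone. Copies in tandem can be alike in sequence and may share signal on an array, so single values within a run are uncertain.

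The longest run held 43 named genes, of which 36 were measured, and its bath stretches lay above the reference while its math stretches had medians near 0. From math-15 to math-31 in gene order, 18 math genes were measured, with 1 above, 5 below and a median of 0.05. Next came bath-4, bath-7 and bath-2, all 3 above the reference, with a median of 0.63. The following 7 measured math genes, math-47 to math-32, had 0 above, 2 below and a median of −0.03. The 7 bath genes from bath-21 to bath-24 then had 6 above, 0 below and a median of 0.804. On every prep the values of these 7 bath genes were positive, from 0.07 to 1.46, and bath-20 was the member that did not pass (0.07, 0.19 and 0.83 on preps 1 to 3; limma adjusted p = 0.110). math-1, the last measured gene of the run, was at 0.30, −0.17 and 0.43 (limma adjusted p = 0.369). Beside these counts, 21.7% of all genes were above the reference and 22.2% below. With blocks of neighbouring probes centred, the calls of bath-7, bath-21 and bath-24 in this run were lost, as was that of math-6.

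**Figure D2:**
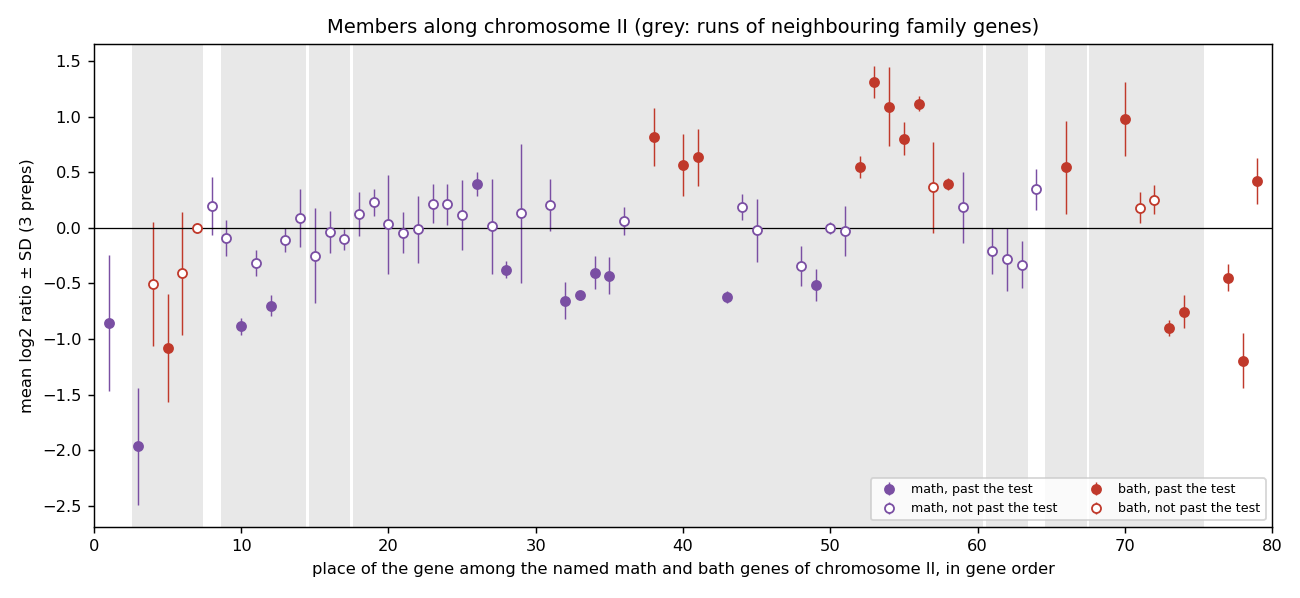
Mean log2 ratio (points) with SD over 3 preps (bars) of the members on chromosome II, placed by their order among the 79 named family genes there, with purple for math, red for bath, filled points for members past the limma test and grey bands for the 7 runs. In the longest run the bath stretches, with medians of 0.63 and 0.804, stand above the math stretches, with medians of 0.05 and −0.03.

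Bath genes were not above the reference in every run. In the run from math-38 to bath-33, bath-26 was below, and bath-46 was at 0.10, −1.01 and −0.599 on preps 1, 2 and 3, and bath-47 at 0.22, −0.63 and −0.82. These 3 bath genes are immediate neighbours, and in each of them prep 1 was higher than preps 2 and 3. In the next gene, bath-33, the preps lay within 0.05 of 0, and math-38, at the other end of the run, was lowest on prep 3. For bath-46 the adjusted p was 0.0639 and for bath-47 it was 0.121 by limma, and the part of array or prep in this split was not tested. In a run of 8 named genes, bath-29 was above the reference, while the neighbours bath-10 and bath-9 were both below it.

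Among 33 pairs of members that are immediate neighbours on chromosome II, the median absolute difference between their mean log2 ratios was 0.23. It was 0.53 over all 2080 pairs of members on that chromosome, and 0.48 over 2020 neighbouring pairs of other genes there. For 23 neighbouring math pairs it was 0.1997 and for 9 neighbouring bath pairs 0.41. All but 1 of the 33 pairs lay within 1 name group, whereas the 2080 pairs mix the 2 groups. The medians on chromosome II were −0.04 for math and 0.395 for bath genes. The median absolute log2 ratio there was 0.21 for math, 0.57 for bath and 0.34 for other genes. Pairs within a group that are not neighbours were not compared, so nearness and name group cannot be told apart. These are descriptions, since pairs share genes and neighbours may share sequence.

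Members off chromosome II were few. Of 9 such members with a chromosome, bath-15 and bath-42 on III, math-33 on V and math-46 on I were above the reference, bath-39 on V was below, and 4 did not pass. That is 44.4% above and 11.1% below, against 21.7% and 22.2% of all genes. The median log2 ratio of these 9 was 0.21. By annotation, 10 members are pseudogenes and 64 are protein coding. Of the 10 pseudogenes 0 were above and 3 were below (math-27, math-47 and math-30, the last named after its value was seen), with a median of −0.03. The 3 below are 30% of so few genes, against 22.2% below and 21.7% above among all genes. Of these 10, 9 are math genes. Among the 35 protein-coding math genes alone, 3 were above (8.57%) and 8 below (22.9%). Among the 29 protein-coding bath genes 14 were above (48.3%) and 6 below (20.7%).

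The spread between preps was near that of all genes, with a median SD of 0.19 for the members against 0.22. The sign was the same on all 3 preps in 47 of the 76 members (61.8%), against 66.3% of all genes. It was so in 52.3% of math genes and 75% of bath genes. Across the 76 members, Pearson's r was 0.79 between preps 1 and 2, 0.74 between preps 1 and 3 and 0.88 between preps 2 and 3, as a description over genes that share arrays and reference. Over all genes the same values were 0.82, 0.798 and 0.92. The SD was over 0.5 in 7 members (9.21%, against 6.55% of all genes). Besides bath-35 and math-34, the widest spreads were those of bath-25 on chromosome I, at −0.49, −0.13 and 0.98, and of math-9, at −0.57, 0.36 and 0.61. Both ran from below to above the reference, and neither passed (limma adjusted p = 0.732 for bath-25 and 0.656 for math-9), except math-9 without prep 1 (0.48, limma adjusted p = 0.0105).

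Prep 3 gave the highest of the 3 values in 43 of 76 members and the lowest in 14, and prep 1 the highest in 18 and the lowest in 39. The median of the members was −0.03 on prep 1, 0.00 on prep 2 and 0.20 on prep 3, while that of all genes was 0.01, −0.02 and 0.00. The level of the surrounding probes also rose from prep 1 to prep 3. That level was the median of each block of 200 neighbouring probes of the value table, the members' own probes included. Over the 77 probes of the members, which lie in 28 blocks, the median block level was 0.01 on prep 1, 0.10 on prep 2 and 0.13 on prep 3. Blocks with several such probes count several times. The part of the block level in the members' shift was not tested. With each block centred, the medians of the members' probes were −0.06, −0.08 and −0.02. The counts were then 13 above and 21 below, where the 13 were all among the 18, and the calls of bath-7, bath-21, bath-24, bath-45 and math-6 were lost. New calls below were bath-46, math-21, math-26, math-35 and math-37, named after their values were seen. In that fit 19.9% of all genes were above and 23.2% below. Among named bath genes the values of bath-7 and bath-21 fell to 0.36 (limma adjusted p = 0.0501) and 0.34 (limma adjusted p = 0.0569).

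**Figure D3:**
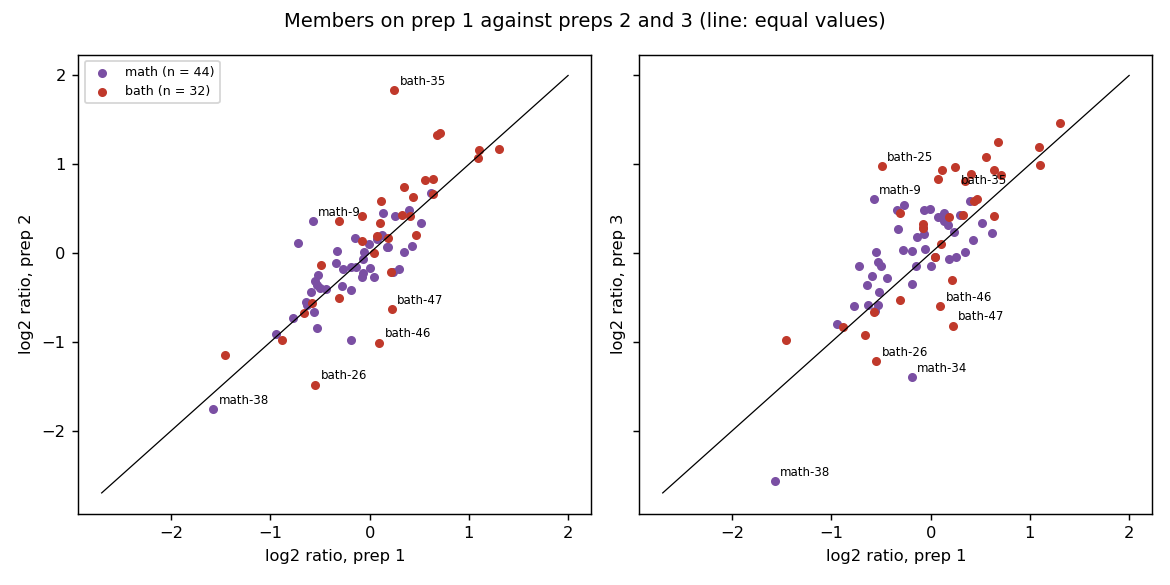
Log2 ratio of the 76 members on prep 1 (x axes) against prep 2 (left) and prep 3 (right), with purple for math, red for bath and a line of equal values. bath-46, bath-47 and bath-26 lie below the line in both panels, and bath-25 lies far above it on prep 3, at 0.98 against −0.49 on prep 1.

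The gene with 2 probes and the probes that name several genes show how far the values depend on the probe. For bath-34, one probe was at −0.28, 0.59 and 0.83 on preps 1, 2 and 3 and the other at −0.34, 0.13 and 0.07. Both were below 0 on prep 1 and above it on preps 2 and 3, and the gene did not pass (0.17 ± 0.41; limma adjusted p = 0.463), except without prep 1 (0.404; limma adjusted p = 0.0199). A probe shared by math-49, math-23 and math-50, which was left out by the rule, was at −0.54, −0.56 and −0.45. It lay near math-23 on its own probe (−0.600) and away from math-49 on its own (−0.02). A probe shared by bath-28 and F14D2.8 was at −0.43, 0.496 and 0.33.

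Genes of the CUL-3 ligase and its regulators were listed beside the members, since BTB adaptors work through them. The same list also held mel-26 with its partner genes, other genes of MATH proteins and genes of other BTB proteins. Of 26 listed genes 20 were measured. Of the 20, 6 were above the reference and 1 was below (30% and 5%, against 21.7% and 22.2% of all genes). The 6 above were dcn-1, cand-1, csn-2, mei-1, mei-2 and kel-10. Of these, mei-1, mei-2 and kel-10 are not genes of the ligase or its regulators, so the share does not describe the ligase alone. The other 13 did not pass, and the median was 0.25. Against a 1.2-fold margin dcn-1, cand-1 and spop-1, the gene below, did not pass (limma adjusted p = 0.0908, 0.104 and 0.0873). cul-3 itself was not analysed here.

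Among the machinery that activates cullins, dcn-1, which promotes attachment of the ubiquitin-like protein NED-8 to cullins, was at 0.52, 0.63 and 0.49, close together on all preps (0.55 ± 0.07; limma adjusted p = 0.00726, or 0.0893 without prep 2). The ring subunit gene rbx-1 (0.28 ± 0.21), ned-8 (0.18 ± 0.16) and the genes of the NED-8 activating enzyme, ula-1 (0.14 ± 0.07) and rfl-1 (0.17 ± 0.16), did not pass, although rbx-1 did once blocks of neighbouring probes were centred (0.37, limma adjusted p = 0.0425). cand-1, whose product binds cullins that lack NED-8, was at 1.16, 1.03 and −0.04. It passed in limma (0.72 ± 0.66; adjusted p = 0.0232) although prep 3 was not above 0, but not with prep 1 left out (0.496, limma adjusted p = 0.0764), nor with prep 2 left out (0.56, limma adjusted p = 0.0531). Of 2 subunit genes of the COP9 signalosome, which removes NED-8 from cullins, csn-2 was at 0.91, 0.36 and 1.12 (0.797 ± 0.39; limma adjusted p = 0.00358), whereas csn-5, which encodes the catalytic subunit, was at 0.00 ± 0.25.

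The transcripts of the adaptor gene mel-26 and of the katanin genes were each set against the reference, not against each other. These mRNA ratios do not measure the breakdown of MEI-1 protein. mel-26 was at −0.05, −0.18 and −0.15, a mean of −0.13 ± 0.07 that did not pass (limma adjusted p = 0.464) except once blocks of neighbouring probes were centred (−0.38, limma adjusted p = 0.0284). The katanin genes mei-1 and mei-2 were both above the reference. mei-1 was at 0.98, 1.36 and 0.901 (1.08 ± 0.25; limma adjusted p = 3.03e-04) and mei-2 at 1.07, 0.997 and 1.04 (1.03 ± 0.04; limma adjusted p = 2.01e-04). Oocyte genes listed as a check were above as well, 5 of 5 with a median of 1.33, as were 29 of 30 major sperm protein genes with a median of 2.34. Whether a larger share of germ cells in the worms than in the reference moved these genes or the bath genes was not tested, and more cells of a type and more RNA per cell cannot be told apart in whole worms. ppfr-1, which encodes a regulatory subunit of protein phosphatase 4, was at 0.24 ± 0.17 and did not pass.

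Other genes of MATH or BTB proteins lay on both sides. spop-1, the counterpart of the human MATH and BTB adaptor SPOP, was at −0.504, −0.42 and −0.77, below the reference on all preps (−0.57 ± 0.18; limma adjusted p = 0.00796, or 0.0926 without prep 3). The TRAF gene trf-1 was at 0.09 ± 0.21 and did not pass. The kelch genes encode BTB proteins with kelch repeats in place of the MATH domain. Of these, kel-10 was at 0.63, 1.42 and 1.61, lowest on prep 1 (1.22 ± 0.52; limma adjusted p = 6.89e-04). The kelch genes kel-8 (0.32 ± 0.27), kel-20 (0.32 ± 0.38) and kel-3 (−0.06 ± 0.08) did not pass. Nor did hpo-9 (0.27 ± 0.49) and inso-1 (−0.27 ± 0.08), which encode BTB proteins of other kinds. With prep 1 left out, kel-20 (0.52, limma adjusted p = 0.00785) and hpo-9 (0.55, limma adjusted p = 0.00456) passed.

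**Figure D4:**
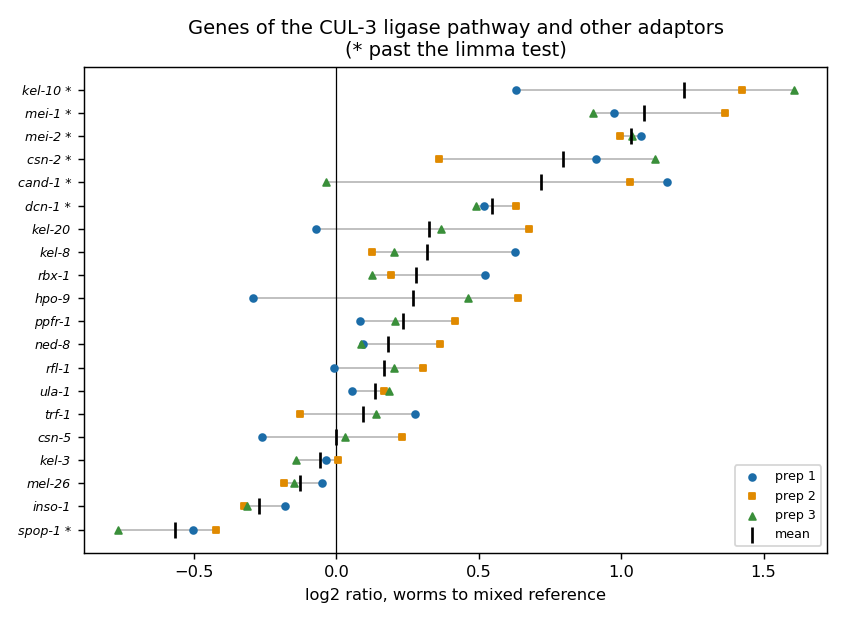
Log2 ratio of worms to mixed reference (x axis) for the 20 measured genes of the CUL-3 pathway list, with 1 point for each prep, a black tick at the mean and an asterisk at genes past the limma test. The katanin genes mei-1 and mei-2 lie near 1 on all preps, while cand-1 runs from −0.04 to 1.16.

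The F-box families are the other large expanded families of ubiquitin ligase adaptors in C. elegans, and they work with CUL-1 and Skp1-related proteins in place of CUL-3. Of 134 fbxa genes 8 were above the reference (5.97%) and 36 below (26.9%), with a median of −0.12. Of 82 fbxb genes 3 were above (3.66%) and 11 below (13.4%), and of 39 fbxc genes 4 were above (10.3%) and 10 below (25.6%). Among all genes 21.7% were above and 22.2% below, so the shares below of fbxa and fbxc genes were near the background. The counts of math genes, with 6.82% above and 25% below, lay near those of fbxa and fbxc. Those of bath genes did not, with 46.9% above, and most of these came from the longest run on chromosome II. Genes with the stem btb, which have a BTB domain under another name, gave 1 above and 2 below of 18, and the Skp1-related skr genes 2 above and 9 below of 16. The differences between these families were not tested, for the reason given above for math and bath genes.

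**Figure D5:**
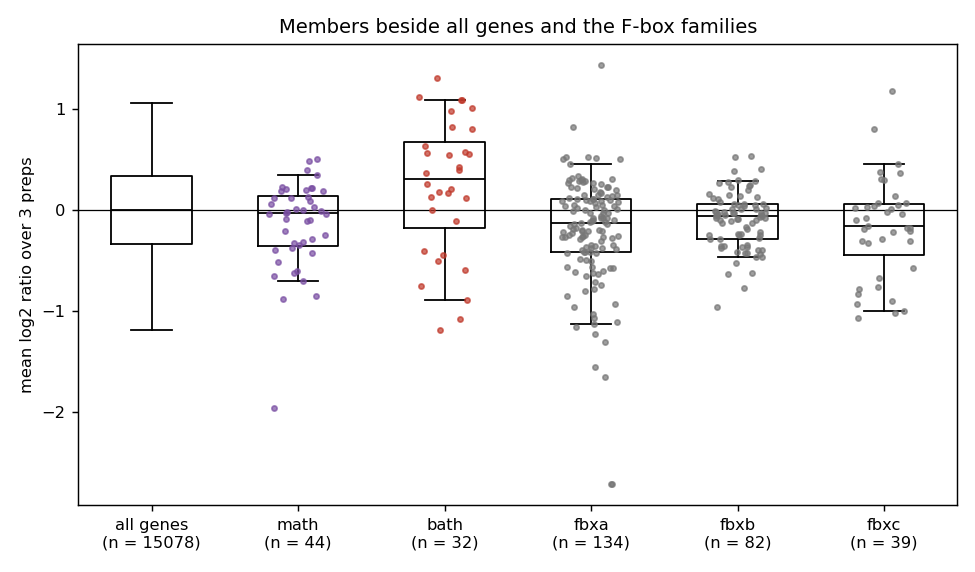
Mean log2 ratio over 3 preps (y axis) of all 15078 genes and of the math, bath, fbxa, fbxb and fbxc genes, with 1 point for each gene except for all genes, boxes from the first to the last quartile with the median, and whiskers at the 5th and 95th percentiles. The median of the bath genes is at 0.31 and those of math, fbxa, fbxb and fbxc lie between −0.16 and −0.03.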

How the data were processed

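The authors deposited 1 log2 ratio per probe and array. That the base is 2 was read from the values, whose antilogs under 1 are whole multiples of a fixed step. The sources used here give no dyes, background correction, normalization or tools. Spot intensities were not analysed. Of 20000 probes, 19664 had a value on all arrays. Names came from the platform annotation, chromosomes and gene order from a table of WBcel235 genes, with no coordinates. Probes of a gene were averaged per array. limma 3.58.1 in R 4.3.3 (lmFit on an intercept, eBayes; prior 7.36 degrees of freedom, SD 0.25) tested the mean against 0, two-sided, with Benjamini-Hochberg adjustment over 15078 genes. The reference's own spread is not in the test. Only the limma test was tried on simulated data, with independent normal noise. It was required to recover only shifts larger than that of any member. Block centring, runs and annotation were not simulated.

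Named by rule were the 12 highest and 12 lowest members past the test with 1 sign on all arrays, the member with several probes, the 4 with the largest SD, the 4 nearest 0, and the measured genes of the CUL-3 list. Members and lists were chosen with earlier results of these data known. Runs, neighbour pairs and the other named members were chosen after the values were seen. No set test was run. The alternatives were other normalizations, probes on at least 2 arrays, robust eBayes, no moderation, a 1.2-fold margin, probes in place of genes, block centring and each prep left out.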

Additional observations from a re-analysis of the deposited data

How the results depend on the processing

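Median centring, scale and quantile normalization, probes on at least 2 arrays, robust eBayes and probes in place of genes left the counts of 18 members above and 17 below as they were. Without variance moderation 0 members passed in either direction, with 29 at an unadjusted p of 0.05, and 0 of all 15078 genes passed, since 3 arrays alone give each gene 2 degrees of freedom. Against a 1.2-fold margin 8 members were above (0 math, 8 bath) and 11 below (7 math), with 26.9% of all genes called in either direction. With 1 prep left out, 10 to 23 members were above and 11 to 20 below, with 0 to 5 math genes above, 6 to 12 math genes below, 9 to 18 bath genes above and 5 to 8 bath genes below, while the share of all genes called ran from 30.6% to 51.4%. Apart from the test without moderation, 8 of the 18 calls above (bath-1, bath-3, bath-4, bath-5, bath-15, bath-19, bath-29 and bath-35) and 9 of the 17 below held under all 11 alternatives. The members' median of 0.05 turned to −0.035 with blocks centred and to −0.014 without prep 3. Among the genes named by rule, the means that turned sign were those of genes that did not pass; other members near 0 were not followed. With blocks centred they were bath-25 at −0.12, bath-33 at −0.19, math-7 at −0.11 and trf-1 at −0.0071. bath-33 was at −0.0091 with arrays centred and, as −5.00e-04 and −0.0019, with scale and quantile normalization. Under quantile normalization math-19 was at 0.0017 and csn-5 at 0.011, and with scale normalization csn-5 was at 0.0032. With 1 prep left out bath-25 ran from −0.31 to 0.42, math-9 from −0.11 to 0.48, bath-33 from −0.023 to 0.024, math-19 from −0.027 to 0.028, math-13 from −0.15 to 0.15, math-7 from −0.22 to 0.19 and csn-5 from −0.12 to 0.13. No paired analysis was possible because the arrays form 1 group. The causes were not tested. Signal over background is unknown, so dim probes could not be told from unchanged ones.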
